A study of Mus musculus with 7 samples.

Results

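The genes described here are *Hes1* and 8 further genes of the Notch pathway, namely the receptors *Notch1* and *Notch2*, the protease *Adam10*, the nuclear factors *Rbpj* and *Maml1*, the targets *Nrarp* and *Dtx1* and the inhibitor *Numb*. They are 9 of the 25033 gene symbols in the count files, and all 9 passed the filter on low counts that left 11265 genes for testing. *Hes1* was chosen because its reads were higher in the knockout mice of this series, and the other 8 because they stand at defined steps of the same pathway. The question was whether the rise of *Hes1* was shared by the rest of the pathway.

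Notch receptors sit in the cell membrane and are activated by ligands on a neighboring cell. A metalloprotease and then gamma-secretase cut the receptor, and its freed intracellular part enters the nucleus, where it binds the DNA-binding protein RBPJ and a Mastermind coactivator and switches on target genes. HES1, a basic helix-loop-helix repressor, is the best known product of such a target gene in blood cells. Notch signaling is known for directing progenitors toward the T cell lineage, and *Hes1* is also known to respond to signals outside the Notch pathway.

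The cells were lin- bone marrow cells, the fraction left after cells with surface markers of mature lineages are removed, from femur and tibia of mice aged 6 to 8 weeks. The control group was 3 wild type mice (Hrp2+/+) and the knockout group 4 mice (Hrp2-/-) carrying the Hrp2 tm1b allele on a C57BL/6N background. The deletion is systemic, so it is carried by every cell type of the animal and not only by blood cells. No treatment was given to either group, and each library was 1 animal, read as 75 bp reads of the 3′ ends of transcripts.

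Wild type libraries held 3525665 to 4490287 reads on genes and knockout libraries 4355974 to 5605158. Expression is given in CPM, counts per 1000000 reads after TMM scaling; since each transcript yields 1 fragment near its 3′ end, CPM were not divided by gene length. At these depths 3 reads, used here as the limit of detection, stand for 0.561 to 0.840 CPM, a limit that covers counting error only. *Hdgfl2*, the knocked-out gene that encodes HRP-2, had 228, 156 and 168 reads in wild type mice 1 to 3 and 13, 3, 8 and 2 reads in knockout mice 1 to 4. Its log2 fold change was −5.09 with a standard error of 0.34 (adjusted p = 1.38e-07, edgeR quasi-likelihood test). The reads lie near the 3′ end, and which exons the allele removes is not given in the sources used here. All 14 progenitor markers, *Kit*, *Cd34* and *Mpo* among them, were detected, with a summed level of 10314 to 12610 CPM in wild type and 9598 to 12152 CPM in knockout mice. *Mpo* alone stood at 5040 to 6810 CPM and 4746 to 6484 CPM, so the sum says little about the rest. Fitted changes were above 0 for 3 of the 14 and below 0 for 11, with a median log2 fold change of −0.12, and none had an unadjusted p under 0.05 (edgeR). Knockout mouse 3 stood apart by *Ddx3y* at 104.5 CPM with *Xist* at 0.561 CPM and by its granule gene *Ngp* at 3694 CPM, and knockout mouse 4 by *Pf4* at 572 CPM and *Col1a1* at 518 CPM. Every other mouse than number 3 of the knockout group had *Xist* at 229 to 303 CPM and *Ddx3y* at 0.777 CPM or less. These sex-linked genes thus differ within the knockout group and not within the wild type group, and the labels used here give no sex. Without knockout mice 3 and 4 none of the 8 genes other than *Hes1* passed the test either.

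The promoters of 3 Notch target genes are shown because these genes are set beside *Hes1* in the comparisons that follow. The table of RefSeq promoter windows used here, 250 bases before to 50 bases after a start site, had entries for 8 of the 9 genes, all but *Hes1*. The windows were searched on both strands for the RBPJ core TGGGAA (reverse complement TTCCCA) and for the N box CACNAG (reverse complement CTNGTG), the letters that HES repressors are known to bind. *Hes5*, the nearest relative of *Hes1* among Notch targets, lies on the forward strand at chr4:154960673-154960972 of GRCm38.p6, and capitals mark its RBPJ cores.
Hes5 promoter: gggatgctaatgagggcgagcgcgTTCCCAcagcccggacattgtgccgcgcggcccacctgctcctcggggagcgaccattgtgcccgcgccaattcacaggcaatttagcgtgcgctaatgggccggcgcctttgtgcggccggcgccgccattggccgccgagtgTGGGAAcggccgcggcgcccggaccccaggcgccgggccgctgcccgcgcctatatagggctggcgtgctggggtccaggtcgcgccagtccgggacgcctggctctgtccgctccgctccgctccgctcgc
*Nrarp* lies on the forward strand at chr2:25180508-25180807, and *Dtx1* on the reverse strand at chr5:120711620-120711919; in both, capitals mark N boxes.
Nrarp promoter: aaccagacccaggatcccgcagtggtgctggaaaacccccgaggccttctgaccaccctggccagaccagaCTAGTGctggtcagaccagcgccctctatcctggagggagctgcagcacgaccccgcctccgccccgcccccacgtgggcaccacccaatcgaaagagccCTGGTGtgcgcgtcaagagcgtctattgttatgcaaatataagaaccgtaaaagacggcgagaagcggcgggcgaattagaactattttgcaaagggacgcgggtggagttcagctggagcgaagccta
Dtx1 promoter: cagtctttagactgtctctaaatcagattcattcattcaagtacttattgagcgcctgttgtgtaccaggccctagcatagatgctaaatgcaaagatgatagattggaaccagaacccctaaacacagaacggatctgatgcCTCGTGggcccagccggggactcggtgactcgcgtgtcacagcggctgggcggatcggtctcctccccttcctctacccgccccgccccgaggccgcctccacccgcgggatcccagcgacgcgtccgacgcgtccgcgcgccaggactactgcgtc
The *Hes5* window held 2 RBPJ cores, starting 226 and 82 bases before the start site, one on each strand, and both extended to the longer form GTGGGAA, which contains the core. Among all 32851 windows, 25.6% held the core and 6.38% the longer form. The windows of *Nrarp* and *Dtx1* held no RBPJ core; they held 2 and 1 N boxes, letters found in 42.5% of all windows. Of the other members, *Rbpj* held the core, at 2 places in the first of its 2 overlapping windows, and the second window shares 1 of them. N boxes were found 3 times in the *Notch1* window, once in that of *Notch2* and once in the third of 3 *Numb* windows, and the windows of *Maml1* and *Adam10* held neither motif. These matches describe the letters of the windows and are not evidence of binding.

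*Hes1* was higher in all 4 knockout mice than in any wild type mouse. It stood at 9.43, 6.72 and 3.99 CPM in wild type mice 1 to 3. In knockout mice 1 to 4 it stood at 15.5, 18.7, 17.0 and 12.0 CPM. The lowest knockout mouse, number 4, lay closest to the highest wild type mouse, number 1. The means were 6.71 ± 2.72 CPM (SD, n = 3) and 15.8 ± 2.87 CPM (SD, n = 4), a ratio of 2.35. The fitted log2 fold change was 1.22 with a standard error of 0.33, and 41 of the 11265 genes had a larger one. These values chose the gene and are a description without a test. Without knockout mice 3 and 4 the log2 fold change was 1.34. In bulk RNA, more cells that express *Hes1* and more *Hes1* RNA per cell cannot be told apart.

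**Figure D1:**
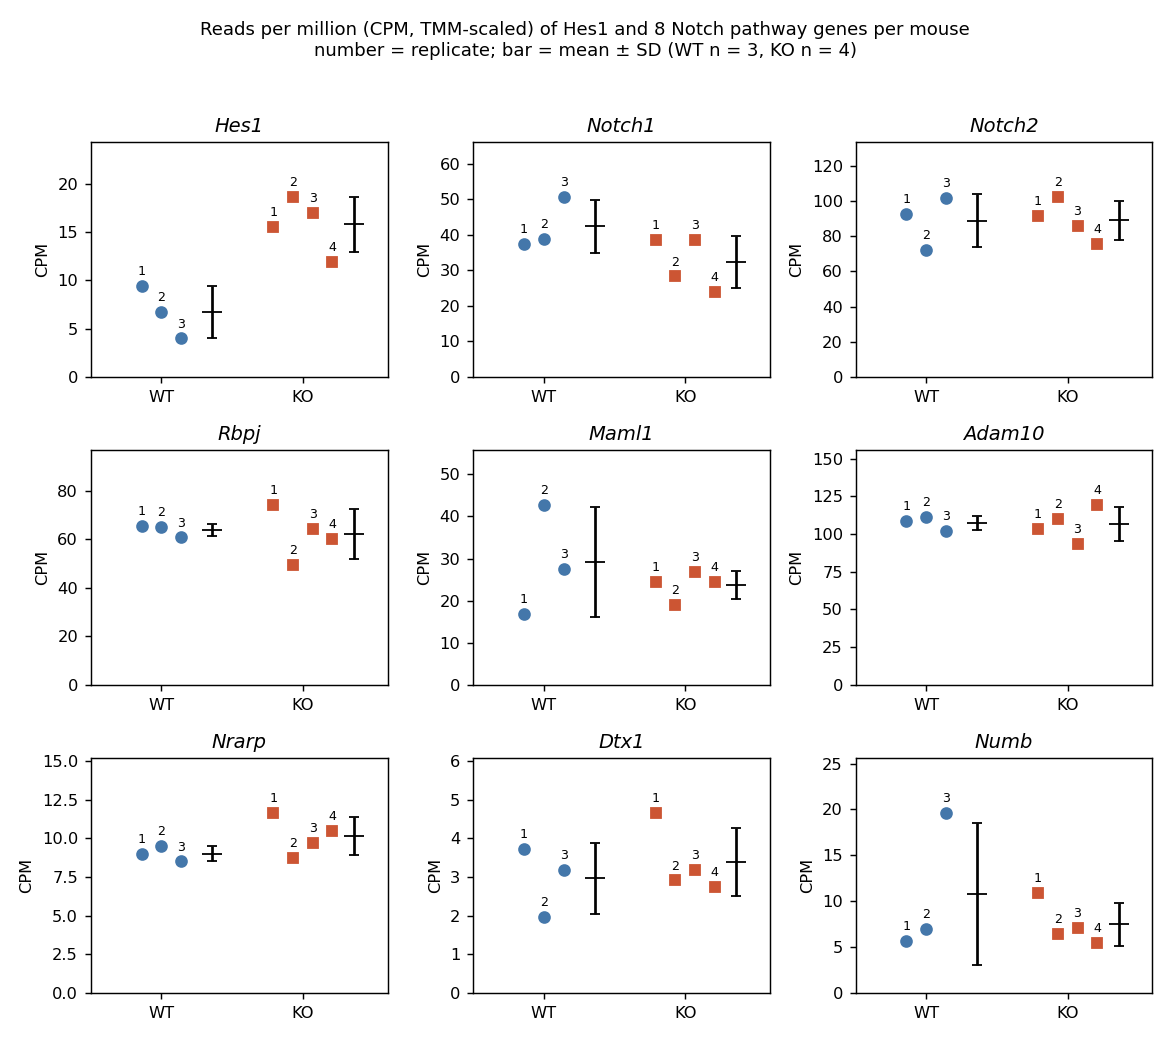
CPM of *Hes1* and the 8 other genes in each mouse, with blue circles for wild type, red squares for knockout and black bars for mean ± SD. *Hes1* runs from 3.99 to 9.43 CPM in wild type and from 12.0 to 18.7 CPM in knockout mice, and the groups overlap for each of the other 8 genes.

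*Hes1* was measured from few reads. Wild type mice 1 to 3 gave 43, 24 and 15 *Hes1* reads and knockout mice 1 to 4 gave 80, 90, 91 and 48. The exact Poisson 95% interval of wild type mouse 1 ran from 6.83 to 12.7 CPM. That of knockout mouse 4 ran from 8.82 to 15.9 CPM, so these 2 neighbors overlapped within counting error. The interval of wild type mouse 3, from 2.23 to 6.57 CPM, lay below those of all 4 knockout mice. The gene occupies chr16:30064384-30067796 on the forward strand of GRCm38, and no exon of another annotated gene overlaps it.

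None of the 8 other genes passed the test between genotypes. All 8 had an adjusted p of at least 0.999 by edgeR's quasi-likelihood test, with 3 fitted changes above 0 and 5 below, and 0 of 8 had an unadjusted p under 0.05. Among all genes tested 0.0178% had an adjusted p under 0.25 (0.00888% higher and 0.00888% lower in knockout mice) and 3.63% an unadjusted p under 0.05 (1.56% higher and 2.07% lower). A fitted change above 0 was found for 49.8% of all genes tested. DESeq2 also called 0 of the 8 and 0.169% of all genes tested. With so few genes called, a count of 0 sets no bound on a change, and the intervals do that. The median log2 fold change of the 8 genes was −0.025, against −0.0014 over all genes tested. The CPM of the genotypes separated for 0 of the 8, where 5.16% of all genes tested separated (2.37% higher and 2.79% lower in knockout mice). For 7 of the 8 the upper end of the 95% interval lay under a log2 fold change of 1, a doubling. The exception was *Dtx1*.

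Of the receptors, *Notch1* is the one required for T cell fate, and *Notch2* is known for marginal zone B cells and is also expressed in myeloid progenitors. *Notch1* stood at 37.3, 38.9 and 50.7 CPM in wild type and at 38.5, 28.3, 38.5 and 23.9 CPM in knockout mice. Mice 2 and 4 of the knockout group were under the wild type range, while mice 1 and 3 fell inside it. The log2 fold change was −0.38 with a standard error of 0.21 and a 95% interval from −0.82 to 0.054 (unadjusted p = 0.0818, edgeR). *Notch2* stood at 92.6, 72.2 and 102.0 CPM in wild type and at 91.7, 102.7, 86.1 and 75.5 CPM in knockout mice. Both groups covered the same range. Its log2 fold change was 0.00087 with an interval from −0.33 to 0.33, and without wild type mouse 2 it was −0.13.

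*Adam10* encodes the metalloprotease that makes the first cut of a ligand-bound receptor. Its CPM were 108.8, 111.4 and 102.0 in wild type and 103.6, 109.9, 93.2 and 119.6 in knockout mice. Of the 9 genes it had the highest level in both genotypes, and the knockout mice fell on both sides of the wild type mice. The fitted change was −0.012 on the log2 scale with an interval from −0.30 to 0.28; without knockout mouse 3 it was 0.047.

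*Rbpj* encodes the DNA-binding protein on which all canonical Notch transcription converges, and *Maml1* a Mastermind coactivator that joins it. *Rbpj* stood at 65.6, 65.2 and 60.8 CPM in wild type and at 74.4, 49.7, 64.5 and 60.3 CPM in knockout mice. Its knockout values spread around the narrow wild type range. On the log2 scale the change was −0.038 with an interval from −0.38 to 0.31; without knockout mouse 2 it was 0.056. *Maml1* stood at 16.9, 42.8 and 27.6 CPM in wild type and at 24.5, 18.9, 26.9 and 24.4 CPM in knockout mice. Wild type mouse 2 was far above the rest, and the 4 knockout mice lay between wild type mice 1 and 3. The log2 fold change of −0.29 (interval −0.84 to 0.26) rested on that mouse and was 0.097 without it.

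*Nrarp* is a direct Notch target whose protein restrains the Notch complex, and *Dtx1* is a target that encodes the ubiquitin ligase Deltex. *Nrarp* stood at 8.99, 9.52 and 8.50 CPM in wild type and at 11.7, 8.73, 9.72 and 10.5 CPM in knockout mice. Knockout mouse 2, where *Hes1* was highest, had the lowest *Nrarp* of the 4. Its change was 0.17 on the log2 scale with an interval from −0.46 to 0.80; without knockout mouse 1 it was 0.099. *Dtx1*, with 7 to 24 reads a mouse, stood at 3.73, 1.96 and 3.19 CPM in wild type and at 4.66, 2.91, 3.18 and 2.74 CPM in knockout mice. The groups overlapped almost entirely. Its log2 fold change was 0.18 with an interval from −0.91 to 1.28, so at this depth a doubling of *Dtx1* would not have been told from no change. Without wild type mouse 2 it was −0.033 and without knockout mouse 1 it was −0.014.

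*Numb* encodes a membrane-associated protein that antagonizes Notch and marks unequal division of progenitors. It stood at 5.70, 7.0 and 19.7 CPM in wild type and at 10.9, 6.44, 7.10 and 5.48 CPM in knockout mice. Wild type mouse 3, which had the lowest *Hes1*, had the highest *Numb*. Its log2 fold change was −0.51 with an interval from −1.39 to 0.36, and without wild type mouse 3 it was 0.24.

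In mean wild type level the 9 genes ran, in CPM, from *Adam10* at 107.4 ± 4.86 through *Notch2* at 88.9 ± 15.2, *Rbpj* at 63.9 ± 2.65, *Notch1* at 42.3 ± 7.34, *Maml1* at 29.1 ± 13.0, *Numb* at 10.8 ± 7.71, *Nrarp* at 9.01 ± 0.509 and *Hes1* at 6.71 ± 2.72 to *Dtx1* at 2.96 ± 0.907 (SD, n = 3 each). The wild type ranges of *Numb*, *Nrarp* and *Hes1* overlapped, as did those of *Notch1* and *Maml1* and those of *Maml1* and *Numb*. The highest *Notch2* value equalled the lowest of *Adam10*. Among the knockout mice *Hes1*, at 15.8 CPM, was above *Nrarp* and *Numb* in every mouse.

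The wider pathway was covered by 77 further genes, of which 61 passed the filter on low counts. None of the 61 passed the test at an adjusted p of 0.25 (edgeR), and none did with DESeq2. Over all genes tested 0.0178% (edgeR) and 0.169% (DESeq2) passed. Fitted changes were above 0 for 30 and below 0 for 31, with a median log2 fold change of −0.0070. An unadjusted p under 0.05 was found for 2 of the 61, *Notch4* and *Dtx4*, and the genotypes separated for 2, *Notch4* and *L3mbtl3*. Over all genes tested these shares were 3.63% and 5.16%, so neither count stood above the background. *Notch4*, in both counts, passed the filter on low counts through its wild type mice alone. The interval lay within a doubling and a halving for 53 of the 61, and for 8390 of the 11265 genes tested.

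**Figure D2:**
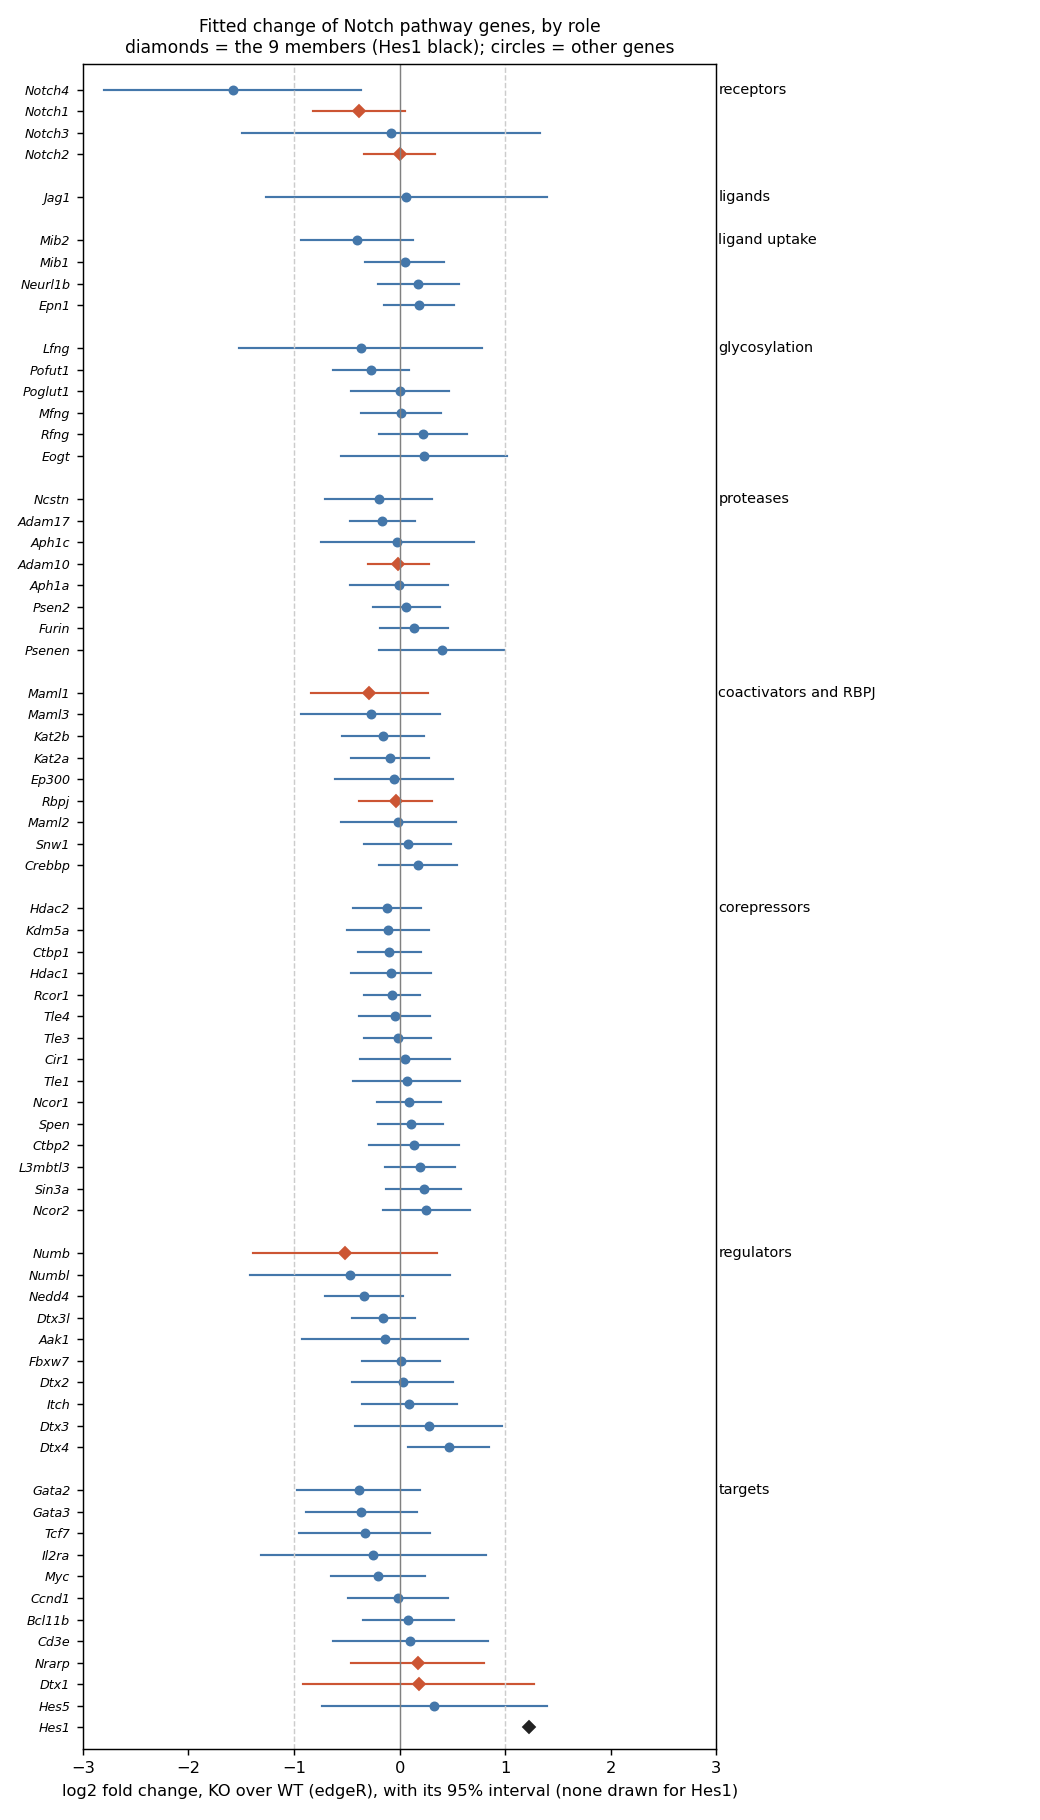
Fitted log2 fold change, knockout over wild type, of the Notch pathway genes tested, grouped by role, with 95% intervals; diamonds are the 9 genes described here and circles other genes of the pathway, of which 1 is not drawn. *Hes1*, drawn without an interval, lies at 1.22, and the points of all others drawn but *Notch4* at −1.58 lie between −0.51 and 0.46.

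*Notch4*, a receptor known from endothelium, stood at 4.61, 2.52 and 4.78 CPM in wild type and at 1.17, 1.25, 0.934 and 1.99 CPM in knockout mice. It had 9 to 21 reads a mouse in wild type and 5 to 8 in knockout mice, without overlap. *Notch4* passed the filter on low counts through the wild type mice alone, so its separation and its p carry that selection. The log2 fold change was −1.58 with a standard error of 0.58 (adjusted p = 0.999, unadjusted p = 0.0137, edgeR). *Dtx4*, a relative of *Dtx1*, stood at 85.6, 57.7 and 80.8 CPM in wild type and at 108.6, 125.5, 102.2 and 75.7 CPM in knockout mice. Knockout mouse 4 fell inside the wild type range and the other three lay above it. The log2 fold change was 0.46 with a standard error of 0.18 (adjusted p = 0.999, unadjusted p = 0.0197, edgeR). The next 3 by unadjusted p were the ubiquitin ligases *Nedd4* and *Mib2* and the fucosyltransferase *Pofut1*, with log2 fold changes of −0.34, −0.40 and −0.27 and adjusted p of 0.999 each (edgeR).

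Ligands were near the limit of detection, and *Jag1* was the 1 of 7 that passed the filter. It stood at 4.83, 1.40 and 1.86 CPM in wild type and at 2.92, 0.831, 3.55 and 4.24 CPM in knockout mice, a log2 fold change of 0.062 with an interval from −1.27 to 1.39. *Dll4* had 0 to 5 reads in wild type and 3 to 16 in knockout mice, and *Jag2* 0 to 7 and 0 to 17. The interval of *Jag1* includes a doubling and a halving, and the other ligands were not tested.

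The proteases that cut the receptor and the enzymes that modify it were compared next. Of the 8 proteases and gamma-secretase subunits tested beside *Adam10*, 4 were above 0 and 4 below, and all 8 had intervals within a doubling and a halving. They included *Adam17* and *Ncstn* with log2 fold changes of −0.16 and −0.20. Of the 6 glycosylation enzymes 4 were above 0 and 2 below, and 4 of the 6 had intervals within these limits. The fringe gene *Lfng* varied most, from 14.9 CPM in knockout mouse 4 to 65.8 CPM in wild type mouse 2. In the nucleus, 7 coactivators beside *Rbpj* and *Maml1* had a median log2 fold change of −0.052 and 15 corepressors one of 0.049. *L3mbtl3*, which encodes a corepressor that binds RBPJ, stood at 54.0, 50.1 and 53.7 CPM in wild type and at 68.2, 54.0, 57.7 and 60.5 CPM in knockout mice. Its log2 fold change of 0.19 had an interval from −0.14 to 0.52, and the highest wild type and the lowest knockout mouse were both at 54.0 CPM to 3 digits.

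Of the 17 Notch targets other than *Hes1*, 12 were tested and none passed the test (edgeR and DESeq2). Over all genes tested 0.0178% (edgeR) and 0.169% (DESeq2) passed. Fitted changes were above 0 for 5 and below 0 for 7. By edgeR 0 of 12 had an unadjusted p under 0.05, against 3.63% of all genes tested, so these counts are near the background. *Hes5* stood at 2.85, 4.20 and 2.66 CPM in wild type and at 5.44, 2.29, 4.48 and 3.99 CPM in knockout mice. The groups overlapped, and the log2 fold change of 0.33 had an interval from −0.73 to 1.39, which includes a doubling. Targets of the T cell program, *Gata3*, *Tcf7* and *Il2ra*, had log2 fold changes of −0.36, −0.33 and −0.25, and *Bcl11b* one of 0.083. *Myc* was at −0.20 and *Ccnd1* at −0.016. *Hey1*, *Hey2* and *Heyl* had at most 3 reads in any mouse, and *Ptcra* was seen in knockout mouse 1 alone, with 4 reads.

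Other helix-loop-helix repressors and their partners followed. Of 15 relatives (HES, HEY, BHLHE and ID genes), 7 were tested and none passed the test (edgeR and DESeq2), with 5 above 0 and 2 below. Over all genes tested 0.0178% (edgeR) and 0.169% (DESeq2) passed. By edgeR 1 of the 7, *Id3*, had an unadjusted p under 0.05, where 3.63% of all genes tested did. *Hes6*, whose protein is known to oppose HES1, stood at 128.8, 140.6 and 151.4 CPM in wild type and at 152.0, 156.5, 129.3 and 154.7 CPM in knockout mice. In 3 knockout mice it lay just above the wild type range and in mouse 3 at its lower end, and the log2 fold change was 0.079 with an interval from −0.20 to 0.36. *Id3*, whose protein blocks the binding of helix-loop-helix factors to DNA, stood at 11.4, 14.8 and 22.9 CPM in wild type and at 35.4, 21.4, 15.5 and 33.6 CPM in knockout mice. Its log2 fold change was 0.70 with a standard error of 0.31 (adjusted p = 0.999, unadjusted p = 0.0377, edgeR), and the groups overlapped. *Id1*, *Id2*, *Bhlhe40* and *Bhlhe41* had log2 fold changes of −0.011, −0.077, 0.32 and 0.038.

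Among genes with a mean of at least 5 CPM, those most like *Hes1* over the 7 mice were not Notch genes. *Hes5*, at a mean of 3.70 CPM, and *Dtx1*, at 3.20 CPM, lay under that level and were not compared, nor were *Notch3*, *Notch4* and *Jag1*. Likeness was the root mean square difference between 2 genes in log2(CPM + 1), each centered on its own mean, among 9831 other genes with a mean of at least 5 CPM. It describes the pattern that chose *Hes1* and has no test. The closest were *Nr4a2* at 0.21, *Rnu12* at 0.28, *Phlda1* at 0.29, *Neat1* at 0.30 and *Rras* at 0.32. *Nr4a2*, an immediate-early nuclear receptor, stood at 67.6, 39.5 and 26.0 CPM in wild type and at 72.7, 88.7, 102.2 and 84.5 CPM in knockout mice. As with *Hes1*, wild type mouse 3 was lowest and all knockout mice were above all wild type mice. *Rras*, a small GTPase gene, stood at 6.36, 4.20 and 4.25 CPM in wild type and at 13.4, 10.6, 10.3 and 12.5 CPM in knockout mice. *Rnu12*, a spliceosomal RNA gene, ran from 3.99 to 9.65 CPM and from 11.3 to 15.7 CPM, and *Phlda1* from 7.44 to 17.1 CPM and from 19.6 to 31.6 CPM. *Neat1*, a long noncoding RNA, overlapped between genotypes. Of the 7 other members at or above this level, *Nrarp* came nearest, at 0.62 and rank 1638. Of 5 further immediate-early genes, *Junb* was at 0.41 (rank 29), *Fos* at 0.48 (rank 105), *Egr1* at 0.49 (rank 129), *Ier2* at 0.61 (rank 1359) and *Klf6* at 0.70 (rank 4361).

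**Figure D3:**
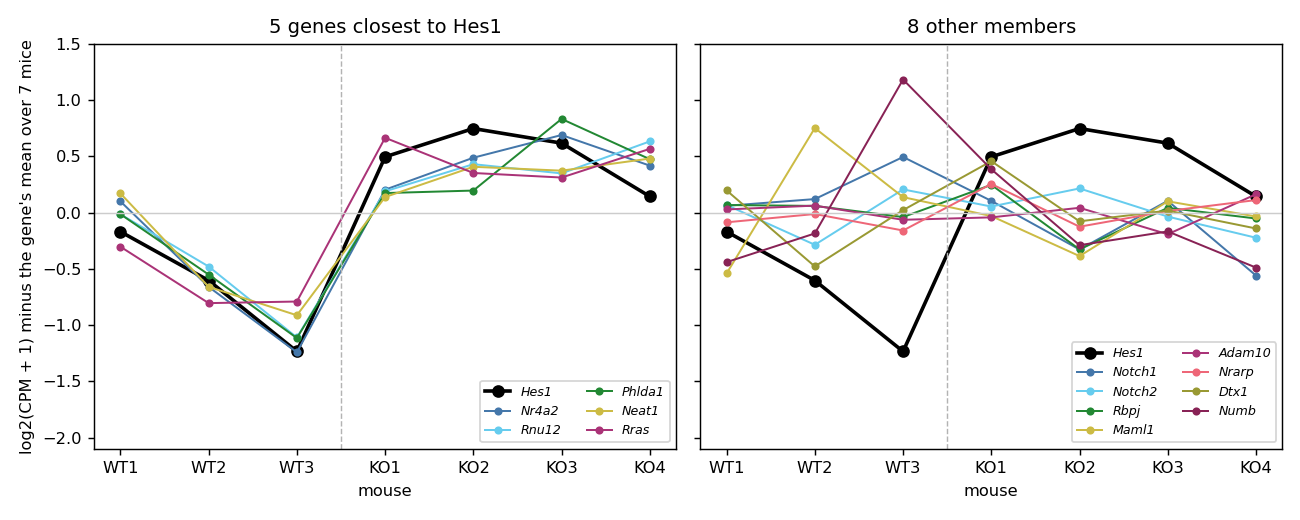
Departure of each gene from its own mean over the 7 mice, in log2(CPM + 1), for *Hes1* (black) with the 5 closest genes (left) and with the 8 other members (right); lines only join the points of 1 gene. The 5 genes, *Nr4a2* closest at a difference of 0.21, are lowest in wild type mouse 2 or 3, while *Numb* and *Maml1* peak in wild type mice 3 and 2.

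Immediate-early genes respond within minutes to stimulation and to cell handling, and their summed level ranked the wild type mice as *Hes1* did, but not the knockout mice. The summed level of the 33 genes was 10407, 7385 and 5089 CPM in wild type mice 1 to 3, the same order as *Hes1*. In knockout mice 1 to 4 it was 8461, 9385, 9391 and 14683 CPM, and the highest sum was in mouse 4, which had the lowest *Hes1* of that group. Wild type mouse 1 exceeded knockout mice 1, 2 and 3 in the summed level but lay below them in *Hes1*. Of the list 32 genes were tested, 29 above 0 and 3 below, with a median log2 fold change of 0.37, and none passed the test at an adjusted p of 0.25 (edgeR, smallest 0.364). An unadjusted p under 0.05 was found for 5 of the 32 by edgeR, all higher in knockout mice, where 1.56% of all genes tested were. DESeq2 called 2 of the 32, *Nr4a2* and *Tnf*, against 0.169% of all genes tested. The genotypes separated for 3 of the 32, *Nr4a2*, *Tnf* and *Ier5*, all higher in knockout mice, where 2.37% of all genes tested did. The list was chosen with earlier results of these data known, so counts set beside these shares are no test. With the mean level of the list as a covariate the log2 fold change of *Hes1* was 1.02. The part of stimulation or handling in the *Hes1* values was not tested.

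**Figure D4:**
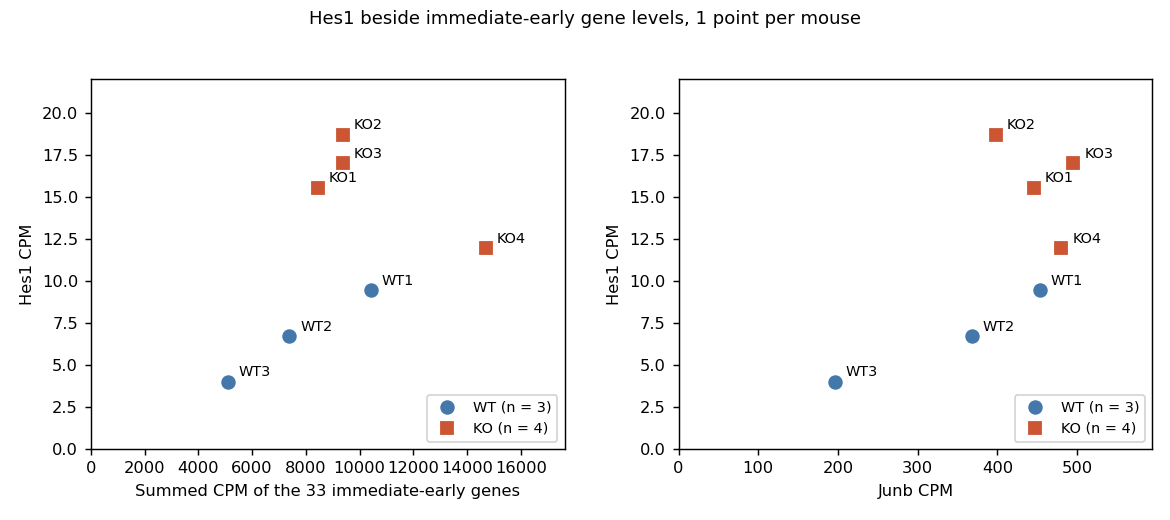
*Hes1* CPM of each mouse against the summed CPM of 33 immediate-early genes (left) and against *Junb* CPM (right). Wild type mouse 1 and knockout mice 1, 2 and 3 lie at similar summed levels, from 8461 to 10407 CPM, with *Hes1* at 9.43 CPM in the wild type mouse and at 15.5 to 18.7 CPM in the knockout mice.

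Single genes of this list differed in their pattern. *Junb*, an AP-1 subunit, stood at 453.7, 367.9 and 196.4 CPM in wild type and at 445.6, 397.9, 495.5 and 480.4 CPM in knockout mice. *Egr1* stood at 672, 452 and 256 CPM in wild type and at 437, 525, 618 and 612 CPM in knockout mice. Both were lowest in wild type mouse 3, and in both wild type mouse 1 was inside or above the knockout range. *Fos* reached 1613 CPM, *Ier2* 602 CPM and *Klf6* 939 CPM in knockout mouse 4, the highest of the 7 mice for each.

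Markers of other cells were set beside *Hes1*. The summed macrophage markers (13 genes, each with reads) ran from 439 to 493 CPM in wild type and from 321 to 367 CPM in knockout mice, and the summed eosinophil, basophil and mast cell markers (14 genes, each with reads) from 3069 to 3222 CPM and from 2195 to 3068 CPM; both were lower in all knockout mice. DESeq2 called 1 of the macrophage markers, *C1qc*, against 0.169% of all genes tested. For both lists edgeR called 0, against 0.0178%. By edgeR an unadjusted p under 0.05 was found for 8 of 12 macrophage and 3 of 13 eosinophil, basophil and mast cell markers tested. These were all lower in knockout mice, where 2.07% of all genes tested were. All marker lists were chosen with earlier results of these data known, so counts set beside these shares are no test. The 12 neutrophil markers each had a fitted change above 0, none past the test (edgeR and DESeq2), and an unadjusted p under 0.05 was found for 0 by edgeR; their sum stood at 8043 to 11186 CPM in wild type and 9123 to 25339 CPM in knockout mice. The T cell, B cell, natural killer cell, erythroid, megakaryocyte and endothelial or stromal sums overlapped between genotypes. An unadjusted p under 0.05 (edgeR) was found for 2 of 10 T cell markers tested, *Cd8a* and *Cd8b1*, both higher in knockout mice (1.56% of all genes tested), while 6 of the 10 had a fitted change below 0 and the list's median was −0.054. It was found for 2 of 10 natural killer and innate lymphoid cell markers tested, *Klre1* and *Il18r1*, both lower (2.07% of all genes tested), and for 0 of the tested B cell, erythroid, megakaryocyte and endothelial or stromal markers. Of the 10 T cell markers in the files, which include *Cd3e* and *Lck*, all had reads, with sums of 291 to 330 CPM and 227 to 380 CPM. The globin genes *Hba-a1*, *Hba-a2*, *Hbb-bs* and *Hbb-bt* had 0 reads in every mouse. The part of these cell types in the *Hes1* values was not tested.

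Strand was not stated for the counting, so reads of overlapping genes are uncertain. Exons of *Notch1*, *Maml1*, *Nrarp* and *Numb* overlap genes on the opposite strand and those of *Notch2* a gene on the same strand, while *Hes1*, *Rbpj*, *Adam10* and *Dtx1* have no such overlap. *Hes5* overlaps *Gm20421* and *Hdgfl2* overlaps *Plin4*, both on the opposite strand. In GRCm38 (GENCODE M21) all 9 are protein-coding genes, with *Notch1* at chr2:26457903-26516663 (reverse strand), *Notch2* at chr3:98013527-98150361 (forward), *Adam10* at chr9:70678997-70780229 (forward), *Rbpj* at chr5:53466152-53657362 (forward), *Maml1* at chr11:50255634-50292311 (reverse), *Nrarp* at chr2:25180758-25183339 (forward), *Dtx1* at chr5:120680202-120711927 (reverse) and *Numb* at chr12:83794034-83921934 (reverse).

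The fitted values were then set against other ways of fitting. *Hes1* stayed between 0.96 and 1.57 on the log2 scale in 20 alternatives, the lowest without wild type mouse 3 and the highest without wild type mouse 1. In each refit 0 of the 8 other genes passed the test. *Dtx1* was not tested where at least 10 counts were asked of every mouse. In the reported fit 0.0178% of all genes tested passed. *Tnf*, at a log2 fold change of 1.15 with a standard error of 0.24, did not (adjusted p = 0.364, edgeR). Not passing therefore does not tell the 8 genes from *Hes1*.

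**Figure D5:**
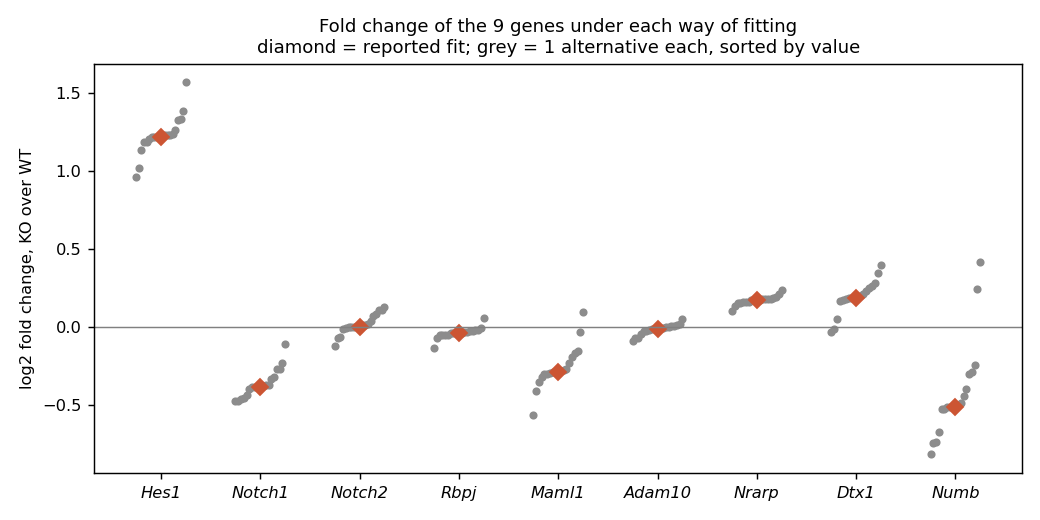
Log2 fold change, knockout over wild type, of the 9 genes in the reported fit (diamonds) and in each alternative (grey points, sorted by value). *Hes1* lies between 0.96 and 1.57 throughout, and the other 8 genes lie between −0.82 and 0.41.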

How the data were processed

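RNA of lin- bone marrow cells was measured in 3 wild type mice and 4 mice lacking *HRP-2*. In the study's methods, libraries of 3′ ends were made from 500 ng of RNA, and the authors aligned reads to GRCm38 with STAR 2.4.2a, which also counted them on Ensembl release 84 genes. The deposited files hold raw read counts per gene symbol and 5 closing tally rows, which were left out here (reads on no gene, 27.0% to 31.6% of a library, and ambiguous reads, 1.99% to 2.40%). Which strand was counted is not given in the sources used here.

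Counts were scaled with TMM factors and compared with edgeR 4.0.16 in R 4.3.3 (filterByExpr, quasi-likelihood test with robust estimation, Benjamini-Hochberg adjustment over 11265 genes). The threshold was an adjusted p of 0.25, with 0.05 beside it. CPM used the same effective library sizes. A standard error is the log2 fold change divided by the square root of F, and 95% intervals use the t distribution of that fit. The fit was tested on simulated counts. Between 3525665 and 5605158 reads lay on genes per mouse, and every pair of mice of a genotype differed by more than sampling noise. Each library is labelled a biological replicate. Replicate numbers were not treated as pairs in the reported fit. Deviations of same-numbered mice correlated at −0.025, −0.21 and −0.16, a check that cannot exclude a pairing of animals.

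The 9 members and all lists were chosen with earlier results of these data known. *Hes1* was chosen for its rise, so its genotype difference was not tested. Named genes are *Hdgfl2*, the members, pathway and related genes with a mean of at least 1 CPM, 5 immediate-early genes and the 5 genes closest to *Hes1*, with cell type markers as sums. Some genes outside that rule, namely *Xist*, *Ddx3y*, *Ngp*, *Pf4*, *Col1a1*, *Tnf*, *Ier5*, *C1qc*, *Cd8a*, *Cd8b1*, *Klre1*, *Il18r1*, *Kit*, *Cd34*, *Mpo*, *Lck*, *Hba-a1*, *Hba-a2*, *Hbb-bs*, *Hbb-bt*, *Hey1*, *Hey2*, *Heyl* and *Ptcra*, were named after their values were seen. Alternatives were DESeq2 1.42.0, limma-voom (limma 3.58.1), different scaling factors and low-count filters, the omission of *Rn45s*, the replicate number as a block and the omission of each mouse; covariates and the joint omission of 2 mice were added after the data had been seen. Gene positions come from GENCODE M21 on GRCm38, promoter sequences from RefSeq (GRCm38.p6). The single values of 1 pathway gene are not reported here.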

Additional observations from a re-analysis of the deposited data

Results flagged for a closer look

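Among the 4 knockout mice, 1 value lay far from the other three in 9 of 103 results examined (Dixon's 95% criterion, which chance meets in about 1 of 20). Knockout mouse 4 was highest in 5 of them. Its *Maml2*, a Mastermind coactivator, reached 17.4 CPM, with the others at 12.3 to 13.0 CPM. Its summed immediate-early genes stood at 14683 CPM against 8461 to 9391 CPM, and its summed erythroid markers at 579 CPM against 360.3 to 392 CPM. Its summed megakaryocyte markers stood at 1038 CPM against 156 to 247 CPM, and its summed endothelial and stromal markers at 749 CPM against 209.9 to 265 CPM. Knockout mouse 3 was lowest for the corepressor *Hdac1*, at 51.8 CPM against 58.6 to 59.7 CPM, and for *Hes6*, at 129.3 CPM against 152.0 to 156.5 CPM. Knockout mouse 1 was lowest for *Hdac2*, at 71.1 CPM against 88.1 to 90.8 CPM, and knockout mouse 2 for the Notch target *Il2ra*, at 1.25 CPM against 4.86 to 5.48 CPM. *Hes1* and the 8 other members were not among the 9 results.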

How the results depend on the processing

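*Hes1* stayed above 0 in all 20 alternatives, and no tested Notch pathway gene or relative other than *Hes1*, which was not tested, passed the threshold in the 19 refits. With the replicate number as a block, *Hes1* was at 1.39 and no call changed among these genes. Fitted changes of 6 members changed sign, *Numb* and *Maml1* included, and the cause was not tested. *Notch2* was at −0.013 with upper quartile factors, −0.0021 with library totals, −0.00056 without *Rn45s* and −0.069 with the *Rn45s* share as covariate; that covariate gave *Adam10* 0.0100. With the immediate-early level as covariate *Numb* was at 0.41 and *Notch1* at −0.11. Leaving out 1 mouse at a time gave −0.13 to 0.11 for *Notch2*, −0.072 to 0.047 for *Adam10*, −0.13 to 0.056 for *Rbpj*, −0.56 to 0.097 for *Maml1*, −0.033 to 0.40 for *Dtx1*, −0.82 to 0.24 for *Numb*, −0.48 to −0.23 for *Notch1*, 0.099 to 0.24 for *Nrarp* and 0.96 to 1.57 for *Hes1*. An unadjusted p under 0.05 appeared for *Maml1* without wild type mouse 1, and for *Notch1* without knockout mouse 1, without knockout mouse 3 and with the *Rn45s* share as covariate (edgeR, adjusted p of at least 0.979 in each). Genes called over the whole table numbered 2, against 19 with DESeq2, 41 without a filter, 3 with limma-voom, 1 with the block, 1 with at least 10 counts, 8 with the *Rn45s* share and 2 to 7 with a mouse left out. No scaling moved the median of all genes by more than 0.015. With 7 to 24 reads a mouse *Dtx1* cannot bound a doubling, nor can *Jag1*.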
